A study of Drosophila melanogaster with 12 samples.

Results

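The genes tna, mbl, dnc, Tis11, Ncoa6 and CG14073 of Drosophila melanogaster were followed across 12 RNA libraries of S2 cells treated with the porphyrin TMPyP4 or with its solvent. They were 6 of 17494 genes in the deposited table, and all 6 were among the 7328 genes that passed the filter on low counts. Each was chosen by its log2 fold change against DMSO in an earlier look at these data, as one of the genes furthest below DMSO: tna and Tis11 at 50 and 100 µmol/L, Ncoa6 at 50 µmol/L, mbl and dnc at 100 µmol/L, and CG14073 at 25 and 100 µmol/L. The rule took the 3 largest decreases at 25 and at 50 µmol/L and the 5 largest at 100 µmol/L, among called genes with an average log2 CPM of at least 1 in edgeR and no overlap with DMSO, and of the genes it took these 6 were grouped as long regulators. Their difference from DMSO is therefore what chose them. It is given below as a description. Counts of the genes past a threshold against DMSO are printed only to be set beside the share of all genes, and nothing about the 6 is read from them.

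S2 is a line of embryonic Drosophila cells with features of hemocytes, the insect blood cells. Cultures were sampled after 48 hours with TMPyP4 at 25, 50 or 100 µmol/L, or with DMSO, and each of the 4 groups had 3 replicate libraries. The labels put a concentration of 100 µg/L on the DMSO cultures without saying what it refers to, and they describe the RNA as prepared in a mixture with zebrafish RNA. Nothing in the labels says that replicates were separate cultures, so the spread between them may be technical. TMPyP4 is a cationic porphyrin known as a ligand of G-quadruplexes, structures that runs of guanine can form in DNA and RNA, and it is not fully selective for them.

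By role 5 of the genes are known regulators. tna (tonalli) encodes a protein with an SP-RING zinc finger, the fold of many SUMO ligases, and belongs to the trithorax group through its interaction with the Brahma chromatin remodelling complex. Ncoa6 encodes a nuclear receptor coactivator that is a subunit of the COMPASS-like histone methyltransferase complex around Trr, and it serves the Hippo pathway effector Yki as a coactivator. mbl (muscleblind) encodes a CCCH zinc finger protein that binds RNA and steers alternative splicing, and it is best known from muscle and photoreceptors. Tis11 encodes a CCCH zinc finger protein of the tristetraprolin family, which binds AU-rich elements in messenger RNAs and promotes their deadenylation and decay. dnc (dunce) encodes a cAMP phosphodiesterase and is known from studies of learning in flies. No role is given here for CG14073.

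The genes are long and had low levels. Since they were grouped as long genes, their length is a description and not a finding. Exonic length is the number of bases covered by the exons of a gene in the annotation BDGP6.54. dnc (FBgn0000479, X, 3176440 to 3343767, plus strand) had 16683 exonic bases in a gene of 167328 bases with 17 annotated transcripts. mbl (FBgn0265487, 2R, 17216549 to 17379376, plus strand) had 15094 in a gene of 162828 bases with 19 transcripts. Ncoa6 (FBgn0031698, 2L, 5315290 to 5326683, minus strand) had 10041, and its exons fill 88.1% of the gene. CG14073 (FBgn0036814, 3L, 18802265 to 18820675, minus strand) had 7804 exonic bases and tna (FBgn0026160, 3L, 10835528 to 10876496, plus strand) had 6969. Tis11 (FBgn0011837, X, 12659415 to 12682560, plus strand) was the shortest of them with 5015. The median tested gene had 2084 exonic bases, and the 6 genes were longer than 86.4% (Tis11) to 99.6% (dnc) of tested genes. In mean log2 CPM, which is not per length, they stood between 0.355 (tna) and 1.43 (Tis11), above no more than 8.23% of tested genes. CPM expresses a count relative to the TMM-scaled total of its library, so that 113 counts of tna in DMSO replicate 1 are 12.4 CPM, and log2 CPM were taken with a prior count of 2.

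Overlap with other genes differed among them. Of the exonic bases of Tis11, 41.1% are shared with the noncoding genes lncRNA:SMRG and lncRNA:CR33963 on its own strand, so its count may leave out ambiguous reads or hold reads of these genes. tna shares 182 exonic bases with CG6418 and Ncoa6 145 with lncRNA:CR44985, each on the other strand. The exons of mbl, dnc and CG14073 overlap no other annotated exon. Whether the counting used strand is not given in the sources used here.

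Libraries held 4669194 to 9662038 gene counts, and the 6 genes together took 16 to 635 of them. Libraries differed in how strongly the level of a gene followed its length. This was measured for each library by regressing log2 CPM, relative to the mean of the gene, on the log2 of exonic length over the tested genes other than the 6. DMSO libraries had slopes of 0.156 ± 0.104 (SD, n = 3). With TMPyP4 the slopes were -0.0111 ± 0.0167 (25 µmol/L), -0.102 ± 0.121 (50 µmol/L) and -0.0423 ± 0.0687 (100 µmol/L), and the DMSO values (0.0527 to 0.262) did not overlap those of the TMPyP4 libraries (-0.221 to 0.0289). Of 12 hemocyte markers, 11 passed the filter, and 3 of them were lower by the edgeR test at 25, 6 at 50 and 7 at 100 µmol/L (27.3%, 54.5% and 63.6% of them, where all tested genes had 1.13%, 5.16% and 3.59%). Their median exonic length was 5955 bases. Of the 1454 longest tested genes (4054 exonic bases or more), 4.75%, 21.7% and 14.2% were lower in order of concentration. The marker counts were not repeated with libraries left out or with blocks. The summed level of the 12 markers was 2219 to 2574 CPM in DMSO and 1146 to 1825 CPM in the TMPyP4 libraries. NimC1, a marker of plasmatocytes, had at most 3 counts in a library. Since mbl and dnc are also known from nerve and muscle, markers of these tissues were read in the same libraries. The 6 neuron markers summed to 0.654 to 2.52 CPM in DMSO and 0.643 to 1.43 CPM with TMPyP4, with VGlut at 0 in every library. The 5 muscle markers summed to 8.19 to 16.6 and 6.61 to 23.0 CPM, nearly all from Mf. The 4 germline markers summed to 285 to 304 and 258 to 301 CPM. The part of these markers in the levels of the 6 genes was not tested.

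All 6 genes were at their highest mean level in DMSO. In the TMPyP4 groups their means were 7.78 to 44.9% of the DMSO mean, with a median of 15.7% over the 18 pairs of gene and concentration. Of these 18 pairs, 17 had every TMPyP4 library below every DMSO library, and the exception was dnc at 25 µmol/L. Of all tested genes, 8.62% at 25, 13.0% at 50 and 13.4% at 100 µmol/L had every TMPyP4 library below every DMSO library. For 5 of the 6 genes all 9 TMPyP4 libraries were below all 3 DMSO libraries, a pattern that 4.41% of tested genes shared. The counts behind these levels were small. They were 19 to 158 in DMSO libraries and 0 to 39 in TMPyP4 libraries, where 14 of 54 values were at or under 3 counts and 2 were 0. In a bulk sample, fewer cells that express a gene and less RNA per cell cannot be told apart.

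**Figure D1:**
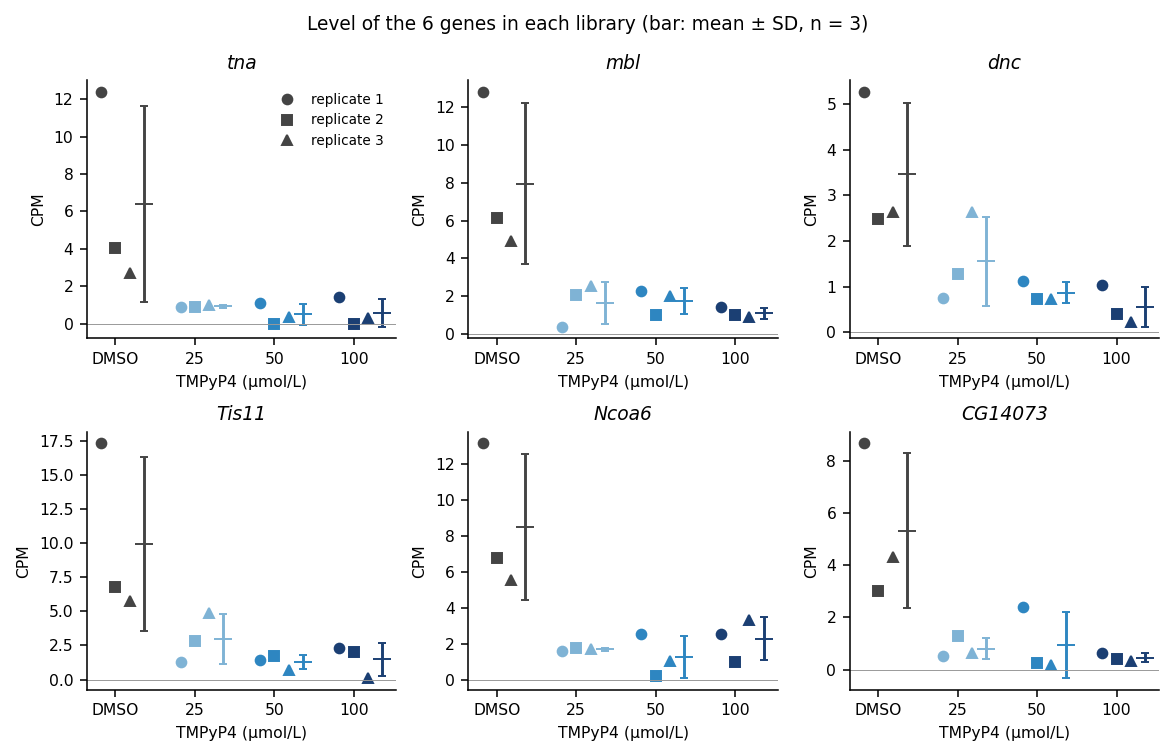
Level in CPM (vertical axis, linear) of each gene in each of the 12 libraries, by group (horizontal axis, TMPyP4 in µmol/L). Circles, squares and triangles are replicates 1, 2 and 3, and the bar beside them is the mean ± SD (n = 3). DMSO replicate 1 is the highest library in all 6 panels, and only in the panel of dnc does a TMPyP4 library (2.64 CPM at 25 µmol/L) reach the DMSO libraries.

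Among the chromatin regulators, tna had 12.4, 4.06 and 2.73 CPM in DMSO replicates 1, 2 and 3, from 113, 31 and 26 counts. The 25 µmol/L libraries had 0.88, 0.889 and 1.00 CPM. Those at 50 µmol/L had 1.13, 0 and 0.366 CPM, and those at 100 µmol/L 1.43, 0 and 0.325 CPM. All TMPyP4 libraries were thus below the lowest DMSO library, which itself was far below DMSO replicate 1. The 25 µmol/L libraries lay close together at 0.924 ± 0.069 CPM (SD, n = 3), while 2 libraries each at 50 and 100 µmol/L had 3 counts or fewer. Fitted log2 fold changes against DMSO were -2.77 (SE 0.70), -3.49 (SE 0.81) and -3.31 (SE 0.76) at 25, 50 and 100 µmol/L.

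Ncoa6, the Trr complex subunit, had 13.2, 6.80 and 5.57 CPM in the DMSO replicates. Levels were 1.63, 1.78 and 1.76 CPM at 25 µmol/L, 2.57, 0.244 and 1.10 CPM at 50 µmol/L and 2.59, 1.01 and 3.36 CPM at 100 µmol/L. No TMPyP4 library reached the DMSO range. Ncoa6 was the only one of the 6 whose mean was higher at 100 (2.32 ± 1.20 CPM, SD, n = 3) than at 25 µmol/L (1.72 ± 0.0778 CPM). Its log2 fold changes against DMSO were -2.29 (SE 0.50), -2.59 (SE 0.54) and -1.80 (SE 0.48).

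Of the RNA-binding regulators, mbl had 12.8, 6.15 and 4.94 CPM in DMSO. At 25 µmol/L it had 0.377, 2.03 and 2.51 CPM, a spread among replicates that exceeded the distance between the TMPyP4 groups. At 50 µmol/L it had 2.25, 0.975 and 2.01 CPM, and at 100 µmol/L 1.43, 1.01 and 0.866 CPM. The groups did not overlap with DMSO at any concentration. The log2 fold changes were -2.27 (SE 0.51), -2.14 (SE 0.53) and -2.84 (SE 0.55). These counts are sums over the gene and do not separate its transcripts or its circular RNAs.

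Tis11, the mRNA decay factor, had 17.3, 6.80 and 5.78 CPM in DMSO, and per kilobase of exon the highest DMSO mean of the 6. It had 1.26, 2.80 and 4.89 CPM at 25 µmol/L, where replicate 3 came close to the lowest DMSO library. Levels were 1.45, 1.71 and 0.732 CPM at 50 µmol/L and 2.33, 2.02 and 0.108 CPM at 100 µmol/L, the last from a single count. The log2 fold changes against DMSO were -1.74 (SE 0.58), -2.95 (SE 0.69) and -2.83 (SE 0.65).

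dnc, the cAMP phosphodiesterase, had 5.26, 2.49 and 2.63 CPM in DMSO, and per kilobase of exon the lowest DMSO mean of the 6. At 25 µmol/L it had 0.754, 1.27 and 2.64 CPM, so that replicate 3 lay within the DMSO range. Levels were 1.13, 0.731 and 0.732 CPM at 50 µmol/L and 1.04, 0.404 and 0.216 CPM at 100 µmol/L, and these groups did not overlap with DMSO. The group means were 44.9% of the DMSO mean at 25, 25.0% at 50 and 16.0% at 100 µmol/L. The log2 fold changes were -1.15 (SE 0.52), -1.96 (SE 0.60) and -2.62 (SE 0.61).

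CG14073 had 8.66, 3.01 and 4.31 CPM in DMSO. It had 0.503, 1.27 and 0.627 CPM at 25 µmol/L, 2.41, 0.244 and 0.183 CPM at 50 µmol/L and 0.648, 0.404 and 0.325 CPM at 100 µmol/L. Replicate 1 at 50 µmol/L, with 15 counts, stood apart from the other two, which had 1 count each, but remained below the lowest DMSO library. At 100 µmol/L its mean was 8.62% of that in DMSO, the lowest share of the 6 genes at that concentration. The log2 fold changes were -2.72 (SE 0.64), -2.35 (SE 0.66) and -3.50 (SE 0.71).

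Set per kilobase of exon, the DMSO mean level was 1.99 CPM per kilobase for Tis11, 0.917 for tna, 0.847 for Ncoa6, 0.682 for CG14073, 0.528 for mbl and 0.207 for dnc. SDs over the 3 libraries were 1.27, 0.751, 0.405, 0.379, 0.281 and 0.0937 in that order, and the libraries of neighbours in this order overlapped for all but the last pair. The DMSO libraries of mbl (0.327 to 0.85 CPM per kilobase) were above those of dnc (0.149 to 0.315).

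At the edge of the choice, the 100 µmol/L rule took dnc at a log2 fold change of -2.62 and left out scyl at -2.54. At 50 µmol/L it took Ncoa6 at -2.59 and left out CG4393 at -2.54. At 25 µmol/L CG14073 was taken at -2.72, the last gene taken was Hsp70Ba at -2.48, and Ncoa6 (-2.29) and mbl (-2.27) were the next outside. The distance across each edge was smaller than the SE of the genes beside it.

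With an edgeR adjusted p under 0.05, 3 of the 6 genes were called lower at 25 µmol/L (mbl, Ncoa6 and CG14073), 5 at 50 µmol/L (all but dnc) and 6 at 100 µmol/L. Of all tested genes, 1.13%, 5.16% and 3.59% were called lower at 25, 50 and 100 µmol/L, and of the 1454 longest genes (4054 exonic bases or more) 4.75%, 21.7% and 14.2%. Nothing is read from these counts, because the comparison with DMSO chose the genes. The median log2 fold change of the 6 was -2.28, -2.47 and -2.83 in order of concentration, where all tested genes had medians of 0.013, 0.021 and 0.015. Single libraries decided the calls. The 25 µmol/L count dropped to 0 when DMSO replicate 1, or replicate 2 or 3 of that concentration, was left out. It was 1 when replicate 1 of that concentration or replicate 2 of the 100 µmol/L group was left out, and 2 to 4 for each other library. The 50 µmol/L count dropped to 0 when DMSO replicate 1, or replicate 2 or 3 of that concentration, was left out, and was at least 4 otherwise. The 100 µmol/L count dropped to 1 (mbl) when DMSO replicate 1 or replicate 2 of that concentration was left out. It dropped to 0 without replicate 3 of that concentration, and was at least 5 otherwise. Over all tested genes, 83, 378 and 263 were called lower in the main fit in order of concentration. Without DMSO replicate 1 these were 8, 47 and 78. Without replicate 2 of the concentration compared they were 2, 43 and 67, and 17, 38 and 65 without its replicate 3. At 25 µmol/L, 121 were called without replicate 1 of that concentration. The 4 runs of neighbouring numbers in the sample titles, whose meaning the labels do not give, were unbalanced over the groups. The run with the highest numbers held 50 µmol/L replicate 2 and 100 µmol/L replicates 1 and 3, and no DMSO library. A block for the runs is thus partly confounded with the treatment. With this block, 0 of the 6 were called at each concentration. Of 7328 tested genes, 8, 0 and 0 were then called lower in order of concentration. The unadjusted edgeR p was under 0.05 for 5, 6 and 5 of the 6 genes. The share of all tested genes under this unadjusted threshold was not counted, and nothing is read from these numbers. Several differences hardly moved under this block while their SEs grew, as for tna at 50 µmol/L (-3.51, SE 0.94), Tis11 at 50 µmol/L (-3.02, SE 0.79) and dnc at 100 µmol/L (-2.62, SE 0.95). CG14073 at 100 µmol/L moved most, from -3.50 to -2.81 (SE 1.26).

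DMSO replicate 1 stood apart for all 6 genes. Its level was 3.65 times the mean of the other DMSO libraries for tna, 2.75 for Tis11, 2.37 for CG14073, 2.31 for mbl, 2.13 for Ncoa6 and 2.06 for dnc. On the log2 scale with 0.5 CPM added, this excess of 0.915 (dnc) to 1.73 (tna) was larger than that of 97.7 to 99.9% of tested genes, whose median was -0.0046. This library is part of the DMSO level that chose the genes, and the tested genes were not matched to their low level. The excess is therefore a description. This library also had the highest slope on length of the 12, 0.262. A line of the excess on length put the 6 genes at 0.23 (Tis11) to 0.50 (dnc), under their observed values. The rule asked for no overlap with any DMSO library, so the sign of a difference without this library was largely fixed by the choice. Without this library the fitted log2 fold changes of the 6 genes were below 0 at all concentrations. tna then had log2 fold changes of -1.85 (SE 0.71), -2.57 (SE 0.81) and -2.39 (SE 0.76) at 25, 50 and 100 µmol/L. For mbl they were -1.75 (SE 0.54), -1.61 (SE 0.56) and -2.31 (SE 0.57), and for dnc -0.71 (SE 0.58), -1.52 (SE 0.65) and -2.18 (SE 0.66).

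The order of libraries within a group was largely shared by the 6 genes. At 25 µmol/L, replicate 1 was the lowest library for all 6, and it had the lowest slope on length of its group (-0.0302). At 50 µmol/L replicate 1, with the highest slope (0.021), was the highest for 5 genes, and replicate 2, with the lowest (-0.221), was the lowest for 4. At 100 µmol/L replicate 1 (slope 0.0289) was the highest for 5 and replicate 3 (slope -0.108) the lowest for 4. In DMSO the lowest library was replicate 3 (slope 0.152) for 4 genes and replicate 2 (slope 0.0527) for 2, against the order of the slopes. Over the 12 libraries, Pearson's r between the log2 CPM of any 2 of the 6 genes was 0.551 to 0.927 with a median of 0.826, over 15 pairs. After removal of the group means it was -0.117 to 0.858 with a median of 0.558. These values are descriptions, since the genes share libraries and were chosen for a like difference between groups.

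**Figure D2:**
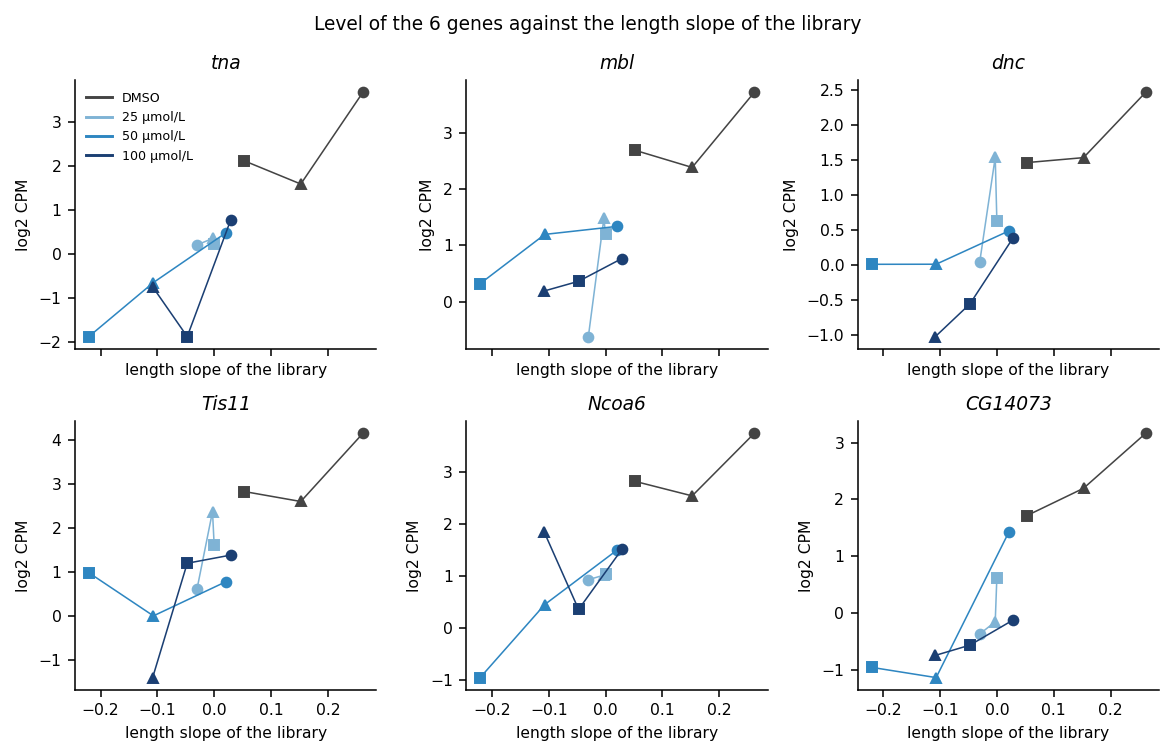
Log2 CPM of each gene (vertical axis) against the slope on exonic length of the library (horizontal axis, no unit), with lines joining the 3 libraries of a group. Markers give the replicate (circle 1, square 2, triangle 3). DMSO replicate 1, at a slope of 0.262, is at the upper right in every panel.

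How far a gene followed this slope among libraries of the same group was read from a fit with group and slope as terms. The rule that chose the genes asked for a call and for no overlap with DMSO, which use the spread within these same groups. The coefficients, and the calls given below, are therefore a description and not a test. Per 0.1 of slope, log2 CPM was higher by 1.02 (SE 0.29) for tna and by 0.96 (SE 0.25) for CG14073. It was higher by 0.66 (SE 0.28) for Tis11, 0.60 (SE 0.27) for dnc, 0.54 (SE 0.23) for mbl and 0.49 (SE 0.22) for Ncoa6. The 1454 longest genes had a median of 0.21 per 0.1 of slope. Long genes define the slope, so some of them had to follow it. By edgeR, 2 of the 6 (tna and CG14073) passed an adjusted p of 0.05, and both had passed the filter by their DMSO counts. Of all tested genes, 10.7% had such a positive coefficient and 6.96% a negative one. Of the longest genes 37.3% had a positive one. The share of 2 in 6 is close to that of long genes in general, and nothing more is read from it. No gene of the 6 passed without DMSO replicate 1 or without 50 µmol/L replicate 1, and 1 (CG14073) passed without 100 µmol/L replicate 1. Positive calls over all tested genes were 332, 175 and 669 in these fits, in that order, against 786 with all libraries. Over the 12 fits that left out 1 library, the coefficient stayed within 0.90 to 1.85 for tna and 0.74 to 1.26 for CG14073. With the replicate number as a block 0 of the 6 passed, and 739 of all tested genes had a positive call.

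Each gene was then set against the line of log2 fold change on log2 exonic length, fitted to 7257 other tested genes. Per doubling of length the fold change went down by 0.173 at 25, 0.258 at 50 and 0.207 at 100 µmol/L, and length accounted for 23.9%, 33.4% and 25.6% of the variance across genes. The line put the 6 genes at -0.21 to -0.84, and all 18 observed values were below it. At 100 µmol/L the line gave -0.42 for CG14073, which was observed at -3.50, and -0.39 for tna, observed at -3.31. It gave -0.62 for mbl (observed -2.84), -0.65 for dnc (-2.62), -0.29 for Tis11 (-2.83) and -0.50 for Ncoa6 (-1.80). The closest to the line was dnc at 25 µmol/L, -1.15 observed against -0.51. The distance from the line had a median over the 6 genes of -1.85, -1.87 and -2.38 in order of concentration, where the residual SD of other genes was 0.334, 0.394 and 0.382. The genes were chosen as extreme values, so a distance below the line was fixed by the choice, and most genes in the line have many more counts. With the line fitted only to genes within 1 log2 CPM of each of the 6, the residual SD was 0.545 (Tis11 at 25 µmol/L) to 0.815 (tna at 50 µmol/L), and the medians were -1.71, -1.68 and -2.13.

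**Figure D3:**
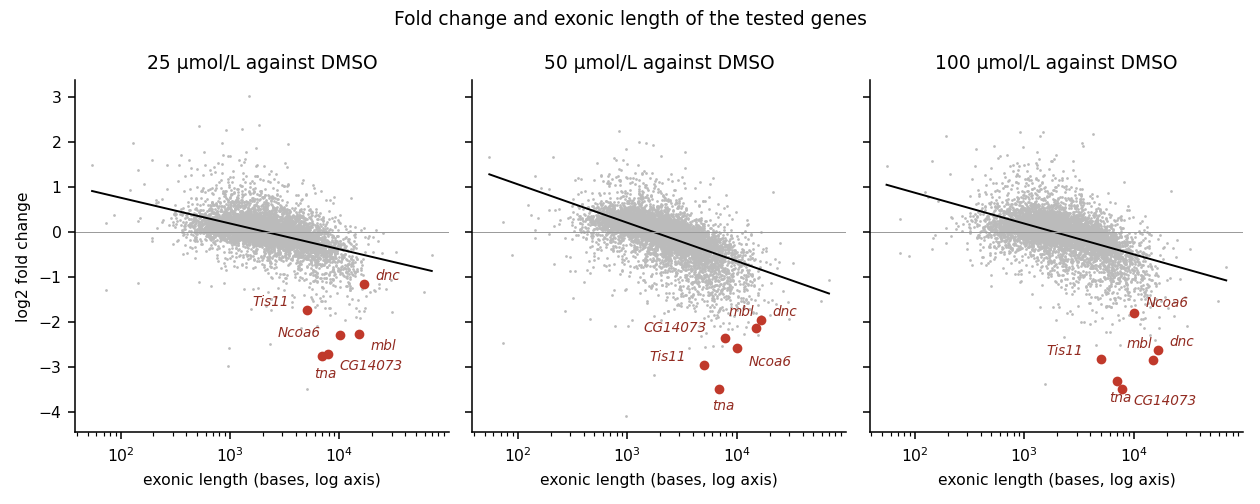
Log2 fold change against DMSO (vertical axis) and exonic length in bases (horizontal axis, log scale) of tested genes with an annotated length, at each concentration. Grey points are single genes, the black line is the least squares line without the 6 genes, and the 6 genes are in red. All 6 are below the line at each concentration, from -1.15 (dnc at 25 µmol/L) to -3.50 (CG14073 at 100 µmol/L).

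Fits that took up length in the model changed the differences to unlike degrees. With an offset for exonic length in each library, 0 of the 6 genes were called at 25 µmol/L, 0 at 50 and 5 (all but Ncoa6) at 100 µmol/L. Of 7328 tested genes, 32, 63 and 202 were called lower in this fit, against 83, 378 and 263 without the offset. Log2 fold changes of the 6 at 100 µmol/L were -1.30 (SE 0.43) for Ncoa6 to -3.09 (SE 0.65) for CG14073. At 25 and 50 µmol/L the unadjusted edgeR p was under 0.05 for 5 and 6 of the 6 genes, a threshold not counted over all tested genes. The genes were chosen for large differences from DMSO, so the sizes that remained are a description and not a test. At 50 µmol/L tna had -3.05 (SE 0.77), Tis11 -2.62 (SE 0.66) and Ncoa6 -2.05 (SE 0.49), against -3.49, -2.95 and -2.59 without the offset. At 25 µmol/L CG14073 had -2.36 (SE 0.58) against -2.72, and dnc -0.61 (SE 0.47) against -1.15. With the slope of the library as a covariate, 0 of the 6 were called at any concentration by edgeR. The unadjusted edgeR p was under 0.05 for 2 at 25, 0 at 50 and 1 at 100 µmol/L, again not counted over all tested genes. At 100 µmol/L the log2 fold change in this fit was -1.22 (SE 0.82) for tna, -1.70 (SE 0.66) for mbl, -1.40 (SE 0.78) for dnc, -1.50 (SE 0.77) for Tis11, -0.72 (SE 0.62) for Ncoa6 and -1.50 (SE 0.76) for CG14073. At 50 µmol/L that for CG14073 was -0.18 (SE 0.75), against -2.35 in the fit without the covariate. With the covariate, 27, 0 and 19 of all tested genes were called lower at 25, 50 and 100 µmol/L, and 57, 0 and 13 higher. The slopes of DMSO and TMPyP4 libraries do not overlap, so the treatment and the slope of the library cannot be told apart.

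**Figure D4:**
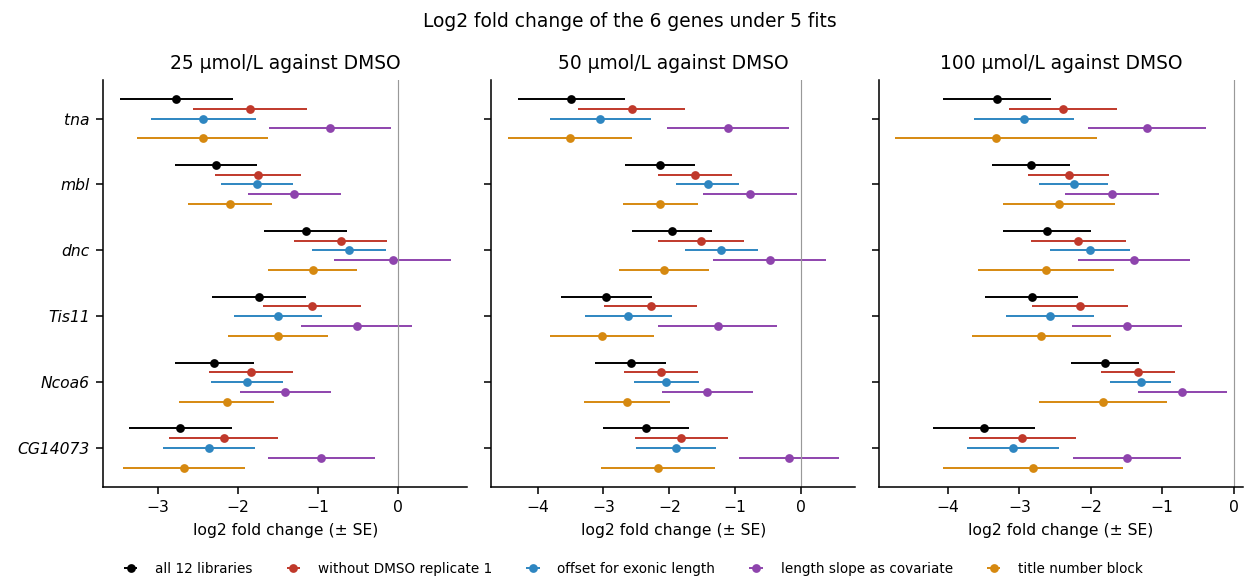
Log2 fold change (horizontal axis) of the 6 genes against DMSO at each concentration in 5 fits, with bars of ± SE: all 12 libraries, without DMSO replicate 1, with an offset for exonic length, with the slope of the library as a covariate, and with the title number block. All values are below 0, which the choice of the genes had largely fixed. The fit with the slope of the library as a covariate is the closest to 0 for each gene, reaching -0.07 for dnc at 25 µmol/L.

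The TMPyP4 concentrations were compared with one another in the same fit. DMSO libraries enter it through the estimate of spread and through the filter, which tna, dnc and CG14073 passed by their DMSO counts. With only the 2 TMPyP4 groups of a comparison in the fit, 7 of the 18 comparisons had a gene that passed the filter: those of mbl and Tis11 with 25 µmol/L and all of Ncoa6. The counts of the other 11 are too low to read a missing difference from. None of the 18 comparisons passed an edgeR adjusted p of 0.05, 1 had an unadjusted p under 0.05, and DESeq2 called 0 of the 9 for which it gave an adjusted p. The background was 0.300% of tested genes called for 50 against 25 µmol/L, 0.205% for 100 against 25 and 0.0409% for 100 against 50. The comparison with the smallest unadjusted p was dnc between 100 and 25 µmol/L, -1.47 (SE 0.66, edgeR adjusted p 0.796), where the 100 µmol/L libraries are among those that chose dnc. Against 25 µmol/L, the difference for Tis11 was -1.22 (SE 0.74, edgeR adjusted p 0.506) at 50 µmol/L and -1.09 (SE 0.70, edgeR adjusted p 0.877) at 100 µmol/L. Ncoa6 had 0.78 (SE 0.59, edgeR adjusted p 0.823) between 100 and 50 µmol/L. For mbl and dnc, neither group in the comparison of 50 with 25 µmol/L chose them. The DMSO and 100 µmol/L libraries, which did, still enter the SE, adjusted p and interval through the estimate of spread. The comparison gave 0.13 (SE 0.60, edgeR adjusted p 0.936) for mbl, with a 95% interval of -1.03 to 1.30. For dnc it gave -0.81 (SE 0.65, edgeR adjusted p 0.596), with an interval of -2.08 to 0.46. For Ncoa6, neither group in the comparison of 100 with 25 µmol/L chose it, while the DMSO and 50 µmol/L libraries enter through the spread. This comparison gave 0.49 (SE 0.54, edgeR adjusted p 0.933), with an interval of -0.56 to 1.55. These intervals do not show that the levels were alike.

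The 3 tested genes most like each of the 6 were taken by Pearson's r of log2 CPM over the 12 libraries, groups included. For tna these were the ion channel gene Piezo (r 0.958), Not1, the scaffold of the CCR4-NOT deadenylase (0.95), and the SUMO protease gene Ulp1 (0.949). For mbl they were the transcription factor gene CrebA (0.943), the deadenylase gene PAN3 (0.931) and AGO2 of RNA interference (0.931). For dnc they were rudhira (0.957), the Mediator subunit gene skd (0.953) and the kinase gene Tao (0.952). Tis11 was most like spoon (0.955), the metalloprotease gene kuz (0.953) and the nuclear receptor gene Eip75B (0.949). Ncoa6 was most like the histone methyltransferase gene Set2 (0.942), ctrip (0.94) and Glt (0.939). CG14073 was most like lbk (0.964), the splicing factor gene Psi (0.959) and the lamin B receptor gene LBR (0.956). Of these 18 genes, 16 were among the longest genes, with 4054 exonic bases or more, which is a description of the list and not a test. None of the 6 was among the 3 most like another, and 2.36 to 5.62% of tested genes had an r over 0.8 with a member. Their log2 fold changes against DMSO at 100 µmol/L were -0.35 (Glt) to -2.51 (CrebA).

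Partners of the 6 genes were read from 5 lists with 74 tested genes. The number called lower was 3, 13 and 9 in order of concentration, and 0 were called higher. These are 4.05%, 17.6% and 12.2% of the list genes, above the 1.13%, 5.16% and 3.59% of all tested genes. They are close to the 4.75%, 21.7% and 14.2% of the longest genes, to which the lists are not matched in length. The lists also hold genes under 4054 exonic bases, such as Snr1 (1335) and Sumo (743). In all, 15 list genes were lower at 1 concentration or more. Their median exonic length was 9618 bases, against 4608 for the other tested genes of the lists. Without DMSO replicate 1 the number called lower was 0, 2 and 3. At 50 µmol/L it was 2 without replicate 2 and 2 without replicate 3 of that concentration, and 27 without its replicate 1. At 100 µmol/L it was 3 without replicate 2 and 3 without replicate 3 of that concentration, and 5 without DMSO replicate 3 or replicate 2 or 3 of the 25 µmol/L group. The 25 µmol/L number was 0 to 4 over the libraries left out. With the slope of the library as a covariate 0 were called at any concentration, and with the title number block 1, 0 and 0. Without the filter on counts 14, 32 and 21 were called lower. Over all tested genes the number called lower moved as well, from 83, 378 and 263 in the main fit. It was 8, 47 and 78 without DMSO replicate 1 and 8, 0 and 0 with the title number block. With the slope as a covariate it was 27, 0 and 19, and without the filter 357, 837 and 586 of 11464. At 50 µmol/L it was 43 without replicate 2 of that concentration, 38 without its replicate 3 and 849 without its replicate 1. Genes of the lists were called higher in 3 of the recounts: 2 at 50 µmol/L without its replicate 1, 1 at 50 µmol/L with DESeq2 and 1 at 25 µmol/L without the filter. These recounts of the lists were chosen after seeing the data. Changes in the lists are given as edgeR log2 fold changes against DMSO, and those named passed an adjusted p of 0.05.

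Of 17 tested genes of the Brahma complex and the SUMO pathway, the partners of tna, 1 fell at 25, 2 at 50 and 2 at 100 µmol/L (11.8% at 100 µmol/L). The SUMO protease gene Ulp1 fell at all concentrations, by 0.90 (SE 0.21), 1.14 (SE 0.22) and 1.02 (SE 0.22) on the log2 scale. The Brahma complex subunit gene osa fell by 0.63 (SE 0.15) at 50 and by 0.84 (SE 0.15) at 100 µmol/L. The list had a median of -0.10 at 100 µmol/L, where all tested genes had 0.015 and tna -3.31. Of 13 tested genes of the Trr complex and its partners, listed for Ncoa6, 0 fell at 25, 3 at 50 and 2 at 100 µmol/L (15.4% at 100 µmol/L). tai, a coactivator of the ecdysone receptor, fell by 1.19 (SE 0.27) at 50 and by 1.03 (SE 0.26) at 100 µmol/L. EcR, the ecdysone receptor gene, fell by 1.63 (SE 0.46) and sd, which encodes the DNA-binding partner of Yki, by 1.51 (SE 0.35) at 50 µmol/L. Ptip, a subunit of the Trr complex, fell by 1.19 (SE 0.33) at 100 µmol/L. This list had a median of -0.19 at 100 µmol/L.

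Among 9 tested splicing regulators listed for mbl, 0 fell at 25, 2 at 50 and 1 at 100 µmol/L (11.1% at 100 µmol/L). The RNA-binding protein gene shep fell by 1.53 (SE 0.35) at 50 and by 1.25 (SE 0.34) at 100 µmol/L, and ps (pasilla) by 1.17 (SE 0.30) at 50 µmol/L. The median of the list was -0.71 at 50 and -0.17 at 100 µmol/L. Of 19 tested genes of deadenylation and decapping, the steps through which Tis11 acts, 1 fell at 25, 3 at 50 and 1 at 100 µmol/L (5.26% at 100 µmol/L). Not1 fell at all concentrations, by 0.99 (SE 0.23), 1.48 (SE 0.24) and 1.37 (SE 0.24). Rga, another CCR4-NOT subunit gene, fell by 0.49 (SE 0.13) and the translational repressor gene pum by 1.32 (SE 0.34) at 50 µmol/L. The median of the list was -0.21 at 100 µmol/L.

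Of 16 tested genes of cAMP signalling, the pathway of dnc, 1 fell at 25, 3 at 50 and 3 at 100 µmol/L (18.8% at 100 µmol/L). CrebA fell by 2.13 (SE 0.36), 2.09 (SE 0.37) and 2.51 (SE 0.37) in order of concentration. It is listed for its name and bZIP domain, and is known as a regulator of secretory pathway genes. The adenylyl cyclase gene rut, whose product makes the cAMP that Dnc degrades, fell by 0.82 (SE 0.22) at 100 µmol/L. Pde11, another phosphodiesterase gene, fell by 1.45 (SE 0.34) at 50 and by 1.23 (SE 0.33) at 100 µmol/L, and the anchoring protein gene Akap200 by 1.37 (SE 0.34) at 50 µmol/L. The median of the list was -0.57 at 100 µmol/L, against -0.36 for the longest genes and -2.83 for the 6 genes.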

How the data were processed

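The authors deposited raw counts per gene for 12 libraries. The submitters' processing notes name genome build dm6, HISAT2 2.0.5, SAMtools 1.7 and HTSeq 0.9.1, with no role or setting. Of 17494 gene IDs, 17358 matched the annotation BDGP6.54, which gave names, lengths and coordinates. All 12 columns were matched to samples by title. Reads without a feature (0.783 to 1.04% of all counted reads) and ambiguous reads (1.87 to 2.71%) were left out.

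Counts were tested with edgeR 4.0.16 (quasi-likelihood, TMM factors, filterByExpr with a minimum count of 10 and total of 15, R 4.3.3), with Benjamini-Hochberg adjustment over 7328 genes and all 12 libraries in each fit. DESeq2 1.42.0, other scaling, no filter, single libraries left out, blocks and length terms were alternatives. The script was tested on simulated data. Named genes were the 6, the 3 most like each, and list genes past the threshold. The members and lists were chosen with earlier results of these data known. No sequences were used here. Intervals assume a normal spread.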

Additional observations from a re-analysis of the deposited data

How the results depend on the processing

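Against DMSO, all 360 alternative values of the 6 genes stayed below 0, and 196 passed the threshold. The number of genes called lower, 3 at 25, 5 at 50 and 6 at 100 µmol/L, went to 0, 0 and 0 with the title number block and to 0, 0 and 0 with the slope of the library as a covariate. With the offset for exonic length it was 0 at 25, 0 at 50 and 5 at 100 µmol/L. Differences in that fit, such as -2.43 for tna at 25 µmol/L and -2.62 for Tis11 at 50 µmol/L, describe genes chosen for large differences. The number called lower without the filter on counts was 5 at 25 µmol/L. With single libraries left out it ranged from 0 to 4 at 25, from 0 to 6 at 50 and from 0 to 6 at 100 µmol/L. Over all tested genes the main fit called 83, 378 and 263 lower in order of concentration. These were 8, 0 and 0 with the title number block and 27, 0 and 19 with the slope as a covariate. With the offset they were 32, 63 and 202. Without the filter 357 of 11464 were called at 25 µmol/L. With single libraries left out they ranged from 2 to 140, from 38 to 849 and from 65 to 357. The count of the 6 genes called for the slope of the library, 2, was 4 without the filter and 0 to 3 with libraries left out. Over all tested genes, 786 had a positive call in the main fit. These were 1027 of 11464 without the filter and 175 to 952 with libraries left out. The count of the 6 is a description, as above. The cause of these changes was not tested.

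With the replicate number as a block, the counts of the 6 genes called lower against DMSO were 3, 5 and 6. For the slope 0 of the 6 were called, where 739 of all tested genes had a positive call. An unadjusted edgeR p under 0.05 was found for 3 of the 6, and was not counted over all tested genes. Over all tested genes 109, 479 and 315 were then called lower against DMSO. Same-numbered libraries of different groups deviated together with r of -0.378 to 0.442 over 18 pairs, of which 6 were over 0.1. These values do not settle whether the numbers pair the samples.

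Between concentrations, 0 values were called under any alternative that gave one. Not all 18 were run in each: 7 had a value with only the 2 groups fitted and 9 had a DESeq2 adjusted p. The sign turned for mbl between 50 and 25 µmol/L with the title number block (-0.040), and for tna (-0.11) and Tis11 (-0.23) between 100 and 50 µmol/L with the slope as a covariate. With libraries left out, the difference between 50 and 25 µmol/L was -0.33 to 0.58 for mbl, -1.24 to 0.12 for Ncoa6 and -1.85 to 0.86 for CG14073. That between 100 and 50 µmol/L was -1.36 to 1.53 for tna, -0.56 to 0.77 for Tis11 and -1.64 to 1.07 for CG14073. The low counts of the 6 genes, 0 to 39 in TMPyP4 libraries, limit the precision of all of these.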
